A study of Macaca mulatta with 12 samples.

Results

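Chemokines are small secreted proteins that steer leukocytes along gradients, and their receptors are G protein-coupled receptors of the cell surface. Atypical receptors of the same family bind chemokines without the usual G protein signal and clear, store or present them. In the primate corpus luteum, the progesterone-secreting gland that forms from the ovulated follicle, chemokines are known for recruiting macrophages and lymphocytes around the time of regression.

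The family was taken as the genes whose single symbol in the array annotation begins with CCL, CXCL, CX3C, XCL, XCR, CCR, CCRL, CXCR or ACKR. Of 14132 genes with 1 symbol on the array, 49 are members, namely 32 ligand genes and 17 receptor genes. Each gene was read from its brightest probe set, and 15 of the 49 have more than 1 probe set. The glands came from 12 female rhesus macaques with normal menstrual cycles, 1 array each and 4 per group. The labels name no genetic change or treatment and give no ages. The late regressed group was collected at days 14 to 16 after the LH surge with serum progesterone below 0.5 ng/ml. The late functional group came from the same days with serum progesterone above 1.5 ng/ml, and the mid-late group, the baseline, from days 10 to 12. The late groups were thus defined by a blood value and hold glands of several days, and every array measured a whole gland with all its cell types.

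Values are log2 array signals as deposited, n = 4 arrays per group, with SD over arrays. Signal is not comparable between probe sets, so no order of abundance among genes is given. Each difference is that of 2 group means on the log2 scale, its SE comes from a limma fit over all 52707 probe sets, and a gene was called at an adjusted p below 0.05. A member was taken as near background when no group mean passed 4.64, a mark set by the 95th percentile of 674 probe sets with the prefix NC. By this mark 24 members were near background and 25 were not. Fewer cells of a type and less RNA per cell cannot be told apart in whole glands.

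Late regressed arrays 2 and 3 stood apart from the other 10 arrays. Their scores on the leading principal component (40.8% of variance) were 93.2 and 81.6, where the other arrays lay between -43.0 and 12.6. For the control transcripts, signal at the 3′ end exceeded that at the 5′ end by 2.55 on late regressed array 2, by 0.48 to 0.73 on the other late regressed arrays, by 0.57 to 0.65 on late functional arrays and by 0.65 to 0.71 on mid-late arrays. The NC probe sets averaged 3.55 ± 0.05 on late regressed arrays and 3.57 ± 0.04 on late functional ones, against 3.69 ± 0.05 on mid-late ones (exact two-sided permutation p = 0.0286 for each late group against mid-late, the smallest that 4 against 4 arrays can give, and 0.0429 adjusted over the 3 comparisons). The 12 measured luteal steroid-cell markers were all above background. Their mean, relative to mid-late, lay at -0.43, -1.63, -1.70 and -0.75 on late regressed arrays 1 to 4, against -0.44 to -0.06 on late functional and -0.13 to 0.06 on mid-late arrays.

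**Figure D1:**
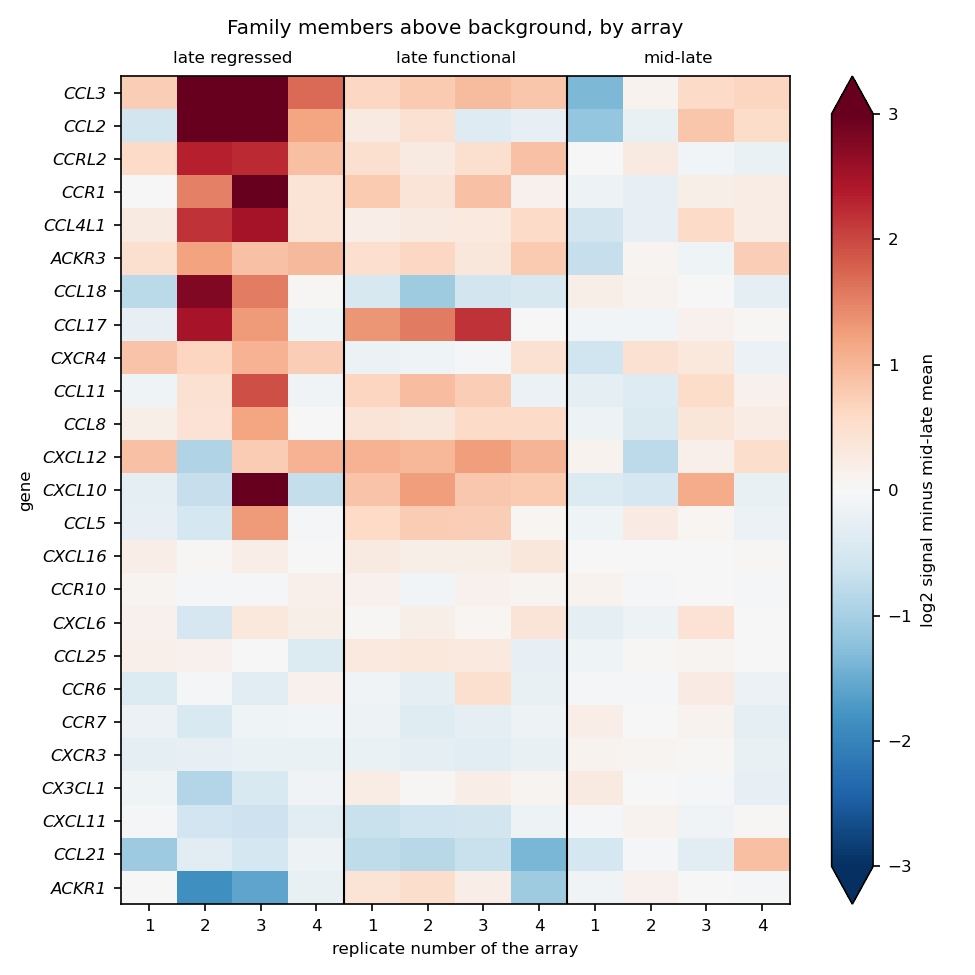
Log2 signal minus the mid-late mean for the 25 family members above background (rows, ordered by late regressed minus mid-late) on the 12 arrays (columns, by group and replicate number), with colours capped at 3 in either direction. CCL3, CCL2, CCRL2, CCR1, CCL4L1 and CCL18 have their 2 highest values on late regressed arrays 2 and 3, while CXCR4 is high on all 4 late regressed arrays.

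Set against mid-late glands, late regressed glands had higher signal of 3 receptor genes and 1 ligand gene. CXCR4, the receptor of CXCL12, rose 1.77-fold, and ACKR3, the atypical receptor of the same ligand, rose 1.84-fold. CCRL2, an atypical receptor that binds chemerin and presents it to other cells, rose at least 2.01-fold, and CCL3, a ligand of CCR1 also named MIP-1 alpha, rose 8.32-fold. These 4 called members are 8.16% of the family, all of them higher and 0 lower. By dimmer probe sets, which were not used for this count, CCL25 (-0.91, adjusted p = 0.00548) and CXCL12 (-0.46, adjusted p = 0.0343) were called lower. Among all genes limma called 7.60% higher and 5.51% lower, so the family's share lies near that of genes in general. Among genes above background these shares were 10.7% and 5.80%, and all 4 called members belong to the 25 above background. Group values did not overlap for 3 members that lay higher (CXCR4, CCRL2 and CCL3, 6.12%, against 10.8% of all genes) and for 2 near-background members that lay lower (CCR8 and CXCL17, 4.08%, against 9.96%). The median difference over the 49 members was -0.00, and over all genes it was -0.02. At an unadjusted p below 0.05, 7 members lay higher and 7 lower, against 2597 and 2460 of all 14132 genes. Of the 17 receptor genes 3 rose, and of the 32 ligand genes 1 did. With the NC mean as a covariate limma called 0 members and 0 of all genes, and the differences were 0.37 for CXCR4, 0.25 for ACKR3, 1.16 for CCRL2 and 0.51 for CCL3. The NC mean did not overlap between late regressed and mid-late arrays, so that its part and that of the group cannot be told apart.

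The CXCL12 axis holds 2 of the 3 receptor genes that rose. CXCL12 retains and recruits leukocytes and progenitor cells through CXCR4 and acts on endothelium, and ACKR3 scavenges it. CXCR4 had 9.77, 9.56, 9.96 and 9.67 on late regressed arrays 1 to 4, 8.74, 8.80, 8.87 and 9.38 on late functional arrays, and 8.31, 9.39, 9.24 and 8.75 on mid-late arrays. All 4 late regressed arrays lay above all 8 others, and their spread was the narrowest of the groups (SD 0.17, against 0.29 in late functional and 0.49 in mid-late). The difference from mid-late was 0.82 (SE 0.22, adjusted p = 0.0386), and it was 0.80 without late regressed arrays 2 and 3, although the call was then lost (adjusted p = 0.141). Leaving out single arrays kept the call in 5 of 12 fits; it was lost without mid-late array 1 (0.62) or 4, late functional array 1, 2 or 3, or late regressed array 1 or 3, with adjusted p from 0.0502 to 0.0963. Late regressed glands exceeded late functional ones by 0.79 (SE 0.22), with an adjusted p of 0.235. Late functional glands averaged 8.95 ± 0.29 and mid-late glands 8.92 ± 0.49, a difference of 0.03 (SE 0.22). CXCR4 is borne by T cells among others. The 12 measured T and NK cell markers averaged, relative to mid-late, 0.16, -0.21, 0.24 and 0.30 on late regressed arrays 1 to 4, -0.08 to -0.00 on late functional arrays and -0.09 to 0.13 on mid-late arrays. Of them GNLY, a granule protein of cytotoxic cells, alone was called higher in late regressed glands (1.71, adjusted p = 0.0257), where 7.60% of all genes were. The median marker difference between late regressed and mid-late was -0.02, and 1 marker was called lower in late functional glands. CD7 and TRAT1 were near background. The list's summed linear signal ran from 2544 to 9574 in late regressed, from 3221 to 6639 in late functional and from 4953 to 9519 in mid-late arrays. The part of these cells in the CXCR4 result was not tested.

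ACKR3 had 8.96, 9.68, 9.37 and 9.46 on late regressed arrays, 8.99, 9.10, 8.83 and 9.28 on late functional arrays and 7.79, 8.58, 8.35 and 9.23 on mid-late arrays. Late regressed and mid-late overlapped only through mid-late array 4, and the lowest value was that of mid-late array 1. The difference was 0.88 (SE 0.25, adjusted p = 0.0486), and the call held in 2 of 12 fits with 1 array left out, those without mid-late array 4 (1.13) or late regressed array 1 (1.02). In the other 10 the adjusted p ran from 0.0553 to 0.106, and the smallest difference, 0.65, was that without mid-late array 1. Late functional glands lay between the other groups, 0.56 above mid-late (SE 0.25, adjusted p = 0.259). The ligand gene had another order. CXCL12 signal was 7.32, 7.26, 7.53 and 7.30 on late functional arrays, above every mid-late array at 6.39, 5.48, 6.44 and 6.79, a difference of 1.08 (SE 0.39, adjusted p = 0.171). In late regressed glands it was 7.16, 5.36, 7.04 and 7.31, so that array 2 alone lay under the mid-late arrays, and the mean was 0.44 above mid-late (adjusted p = 0.472). Without late regressed array 2, the late functional difference was called (adjusted p = 0.041) and so was the late regressed one (0.90, adjusted p = 0.0469). The 2 other CXCL12 probe sets did not follow the brightest one. In late regressed against mid-late glands they differed by -0.46 (adjusted p = 0.0343, a call in the opposite direction) and by -0.07 (adjusted p = 0.83), so the direction for CXCL12 depends on the probe set.

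**Figure D2:**
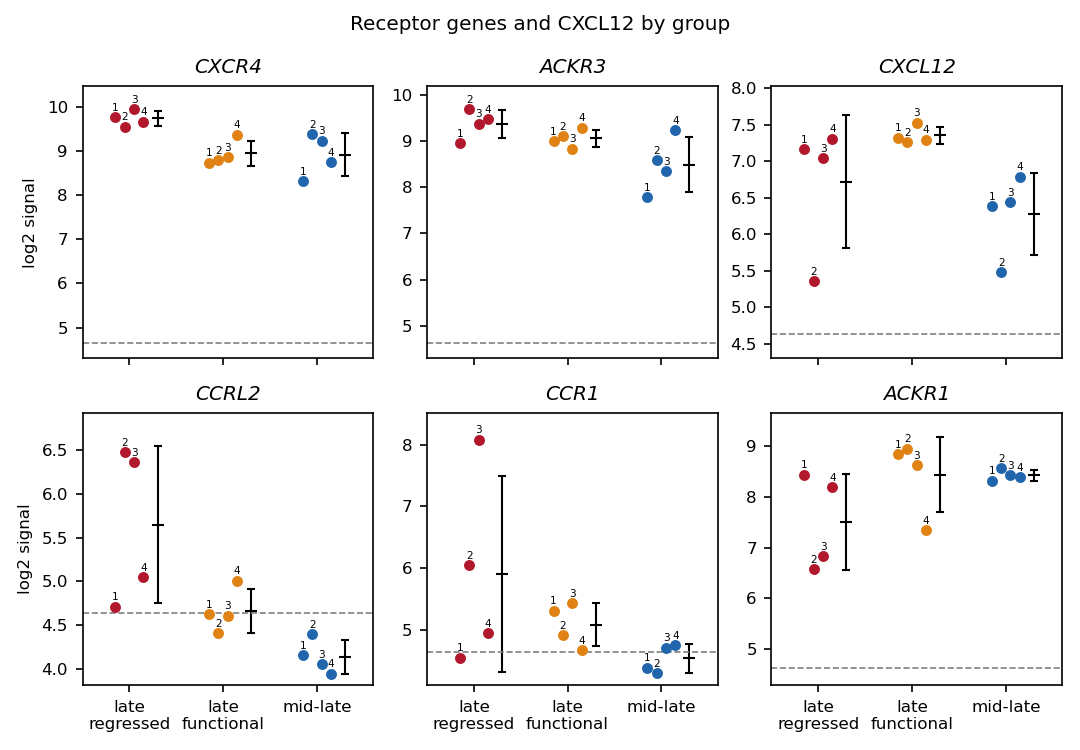
Log2 signal (vertical axis) of 5 receptor genes and CXCL12 on each array, by group, with points numbered by replicate, bars for mean ± SD (n = 4) and a dashed line at 4.64, the background mark. The late regressed CXCR4 points, 9.56 to 9.96, all lie above the other 8, and the CCRL2 and CCR1 points split into arrays 2 and 3 above arrays 1 and 4.

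CCRL2 signal lay around the background mark outside late regressed glands. Its values were 4.71, 6.47, 6.36 and 5.05 on late regressed arrays, 4.62, 4.40, 4.61 and 5.01 on late functional arrays, and 4.15, 4.39, 4.05 and 3.94 on mid-late arrays. All late regressed values lay above all mid-late values, and so did all late functional ones, if narrowly (4.40 against 4.39). The difference between late regressed and mid-late was 1.51 (SE 0.35, adjusted p = 0.0234). Because the mid-late mean of 4.13 was below the background mark, the fold of at least 2.01 was computed against 4.64. Without late regressed arrays 2 and 3 the CCRL2 difference was 0.74 (adjusted p = 0.0552). With single arrays left out the call held in 8 of 12 fits and was lost without mid-late array 1, 3 or 4 or late regressed array 3, with adjusted p from 0.0516 to 0.0597. CCR1, a receptor of CCL3 and CCL5 on monocytes and neutrophils, had 4.54, 6.05, 8.08 and 4.94 on late regressed arrays, 5.31, 4.91, 5.42 and 4.67 on late functional arrays and 4.38, 4.29, 4.71 and 4.75 on mid-late arrays. Only late regressed arrays 2 and 3 stood above all others, and the difference of 1.37 from mid-late (SE 0.59) had an adjusted p of 0.146. The mid-late mean of 4.53 was below the background mark. With single mid-late values under that mark raised to it, the uncalled difference of group means was 2.32-fold. The CCR1 difference was called without late regressed array 1 (1.82, adjusted p = 0.0499), and it was 0.21 without arrays 2 and 3 together (adjusted p = 0.638). ACKR1, which binds many chemokines on red blood cells and on the endothelium of venules, had 8.43, 6.58, 6.82 and 8.19 on late regressed arrays, 8.83, 8.94, 8.62 and 7.34 on late functional arrays and 8.31, 8.55, 8.42 and 8.38 on mid-late arrays. Late regressed arrays 2 and 3 were its lowest, while arrays 1 and 4 lay close to mid-late (difference -0.91, SE 0.43, adjusted p = 0.184). A dimmer ACKR1 probe set differed by 0.79 in the other direction (adjusted p = 0.0855). Of 12 measured endothelial markers, all above background, 4 rose in late regressed glands, where 7.60% of all genes did. Of 4 red blood cell markers, with AHSP near background, 0 were called by limma, and they averaged, relative to mid-late, -0.18, 0.22, -0.87 and -0.98 on late regressed arrays 1 to 4, -0.78 to -0.22 on late functional arrays and -0.31 to 0.29 on mid-late arrays. The part of these cells in the ACKR1 values was not tested. The other receptor genes above background were not called. CXCR3, through which T cells respond to CXCL9, CXCL10 and CXCL11, averaged 5.51 ± 0.04 in late regressed and 5.48 ± 0.07 in late functional glands, against 5.74 ± 0.15 in mid-late glands (adjusted p = 0.076 and 0.118). CCR7, which guides dendritic and T cells to lymph nodes, averaged 5.60 ± 0.17 in late regressed and 5.58 ± 0.11 in late functional glands, against 5.82 ± 0.22 in mid-late glands. CCR6, the CCL20 receptor gene, averaged 4.90 ± 0.25 in late regressed, 5.04 ± 0.34 in late functional and 5.07 ± 0.18 in mid-late glands. CCR10 signal ran only from 5.24 to 5.48 over the 12 arrays.

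Among the CC ligands above background, CCL3, CCL2, CCL4L1, CCL18, CCL17, CCL11 and CCL8 had higher values on late regressed arrays 2 and 3 than on arrays 1 and 4. CCL3 had 7.01, 11.16, 11.19 and 7.99 on late regressed arrays, 6.89, 7.05, 7.22 and 7.11 on late functional arrays, and 4.94, 6.39, 6.86 and 6.93 on mid-late arrays. The late regressed values all exceeded the mid-late ones, narrowly on array 1. The difference was 3.06 (SE 0.84, adjusted p = 0.0434), and 1.22 without late regressed arrays 2 and 3 (adjusted p = 0.185). With single arrays left out the call held in 2 of 12 fits, without late regressed array 1 (3.83) or 4 (3.51). In the other 10 the difference was 2.44 to 3.27, with adjusted p from 0.0531 to 0.111. The 3 other CCL3 probe sets differed by 0.84 to 2.73 and were not called (adjusted p from 0.0567 to 0.175). CCL2, the main monocyte attractant and the ligand of CCR2, had 5.35, 11.43, 11.86 and 7.08 on late regressed arrays, 6.17, 6.36, 5.51 and 5.66 on late functional arrays, and 4.74, 5.68, 6.73 and 6.45 on mid-late arrays. Arrays 2 and 3 lay above 11, where no other array passed 7.08, but late regressed array 1 lay below the mid-late mean of 5.90. The CCL2 difference of 3.03 (SE 1.20) had an adjusted p of 0.12, and it was 0.32 without arrays 2 and 3. Without late regressed array 1 it was called (4.22, adjusted p = 0.0169). CCL4L1, a copy of CCL4 (MIP-1 beta), had 5.57, 7.46, 7.80 and 5.71 on late regressed arrays, 5.51, 5.57, 5.60 and 5.87 on late functional arrays and 4.75, 5.06, 5.88 and 5.51 on mid-late arrays, with the same 2 arrays on top (difference 1.34, SE 0.46, adjusted p = 0.0804). It was called without late regressed array 1 (1.69, adjusted p = 0.0258) or 4 (1.65, adjusted p = 0.0416). Without arrays 2 and 3 together the CCL4L1 difference was 0.34 (adjusted p = 0.477). CCL3 and CCL4 have near-identical copies in primates. CCL3 and CCL4L1 were read here from probe sets whose type can match related transcripts, so each may report several copies. The probe sets used for CCL5, CCL25 and CXCL6 are of this type too.

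CCL18, a ligand made by alternatively activated macrophages, was high on the same arrays. Its values were 7.12, 10.71, 9.47 and 7.96 on late regressed arrays, 7.46, 6.86, 7.38 and 7.46 on late functional arrays and 8.11, 8.03, 7.94 and 7.65 on mid-late arrays. Every late functional array lay below every mid-late array (difference -0.64, SE 0.59, adjusted p = 0.591), and late regressed array 1 lay below mid-late as well. Late regressed exceeded late functional by 1.52 (SE 0.59, adjusted p = 0.345). The second CCL18 probe set gave 6.15, 11.13, 10.08 and 7.16 on late regressed arrays, 5.62 to 6.27 on late functional arrays and 5.79 to 6.49 on mid-late arrays. Late functional and mid-late overlapped there (difference -0.17), and late regressed minus mid-late was 2.48 (adjusted p = 0.0829), against 0.88 (adjusted p = 0.339) by the brighter one. Without late regressed arrays 2 and 3 the brighter one gave -0.40 (adjusted p = 0.379). CCL8, another monocyte attractant, averaged 7.57 ± 0.53 in late regressed, 7.59 ± 0.12 in late functional and 7.12 ± 0.36 in mid-late glands, with its highest value, 8.31, on late regressed array 3. A dimmer CCL8 probe set, also above background, went the other way. It differed from mid-late by -0.23 in late regressed and -0.35 in late functional glands, uncalled, and its highest value, 6.75, was on mid-late array 3. The dimmest CCL8 probe set, near background, differed by 0.07 and -0.16. CCL5, which T cells and platelets release, averaged 5.76 ± 0.80 in late regressed, 6.19 ± 0.33 in late functional and 5.65 ± 0.19 in mid-late glands, and its highest value of 6.93 was on late regressed array 3. CCL2, CCL8 and CCL11 are neighbours in the macaque gene order together with CCL1 and CCL13, and CCL3, CCL5 and CCL18 lie in a second run of neighbours. Within the first run CCL1 and CCL13 were near background in all groups, and within the second CCL14, CCL16 and CCL23 were. The receptor genes CXCR6, XCR1, CCR1, CCR3, CCR2 and CCRL2 form a run of neighbours too, and of these CXCR6, XCR1, CCR3 and CCR2 were near background.

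**Figure D3:**
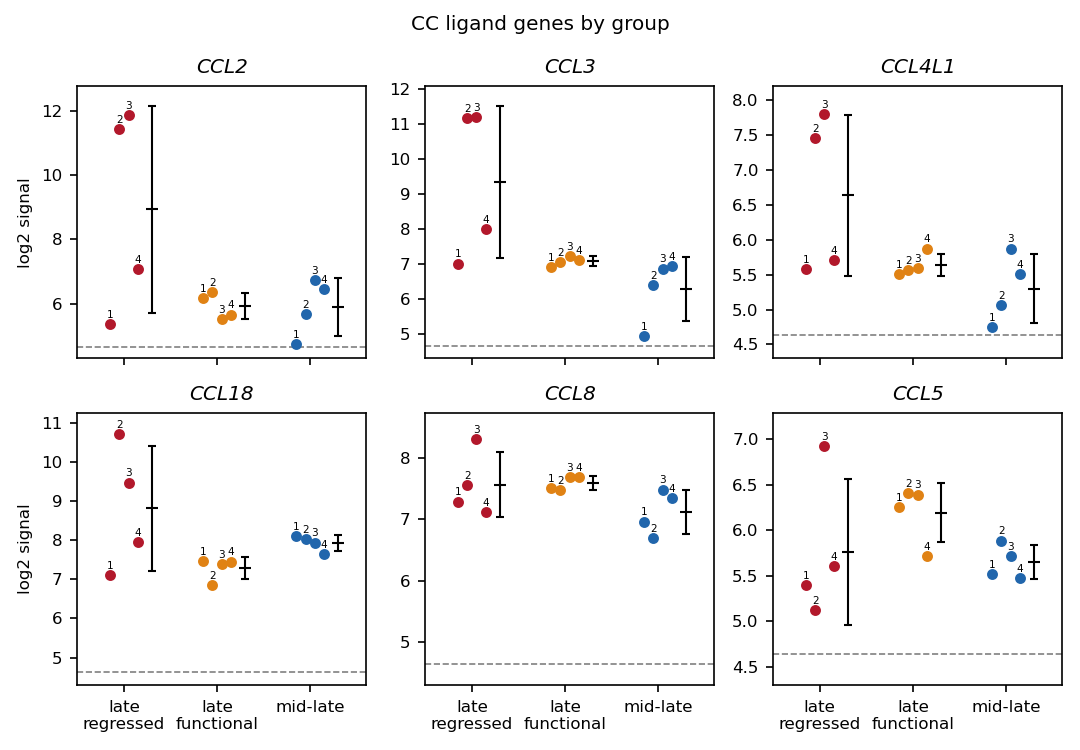
Log2 signal (vertical axis) of 6 CC ligand genes on each array, by group, with points numbered by replicate, bars for mean ± SD (n = 4) and a dashed line at 4.64. CCL2, CCL3, CCL4L1 and CCL18 are highest on late regressed arrays 2 and 3, whereas CCL8 and CCL5 are highest on array 3.

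In all, 6 of the 25 members above background (24.0%) had their 2 highest values on late regressed arrays 2 and 3, and 2 members had their lowest there. Over the 9744 genes above background these shares were 18.7% and 11.8%, so the family's pattern lies close to that of genes in general. The spread was largest in the late regressed group for 18 of 25 members, and for 68.0% of all genes above background. The 13 measured macrophage and monocyte markers, of which ITGAM alone was near background and CYBB rose (2.56, adjusted p = 0.0472), were read beside these values. Relative to mid-late they averaged 0.71, 0.80, 1.95 and 0.31 on late regressed arrays 1 to 4, 1.03 to 1.11 on late functional arrays and -0.73 to 0.83 on mid-late arrays. The median marker difference from mid-late was 1.18 in late regressed and 1.18 in late functional glands. Their summed linear signal ran from 3205 to 11790 in late regressed, from 5824 to 6699 in late functional and from 1412 to 5272 in mid-late arrays. Late regressed array 3 had the highest macrophage mean, 1.95, and the highest CCL2 value, 11.86. Late regressed array 2, where control signal at the 3′ end exceeded that at the 5′ end by 2.55, had a mean of 0.80 and a CCL2 value of 11.43. Late functional arrays had CCL2 values of 5.51 to 6.36. Of 10 neutrophil markers 7 were near background, and the median difference of the 10 between late regressed and mid-late was -0.10. S100A8 rose (2.40, adjusted p = 0.0233), with 7.06, 7.80, 7.25 and 4.50 on late regressed arrays. The neutrophil list averaged 0.31, 0.36, 0.64 and -0.13 on these arrays and -0.13 to 0.10 on late functional ones, against -0.12 to 0.13 on mid-late ones, and its summed linear signal was 160.0 to 465.3 in late regressed, 157.3 to 188.9 in late functional and 158.2 to 190.3 in mid-late arrays. Of 10 dendritic cell markers 6 were near background and CD83 rose (1.99, adjusted p = 0.0411), while the median difference of the 10 from mid-late was 0.02. The list averaged 0.43 and 0.67 on late regressed arrays 2 and 3, against -0.09 to 0.09 on the other 10 arrays. Of 9 B and plasma cell markers 6 were near background and 0 were called by limma in any comparison. The macrophage, neutrophil and dendritic lists each had 1 marker called higher in late regressed against mid-late glands, where 7.60% of all genes were. The part of these cells in the chemokine values was not tested.

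**Figure D4:**
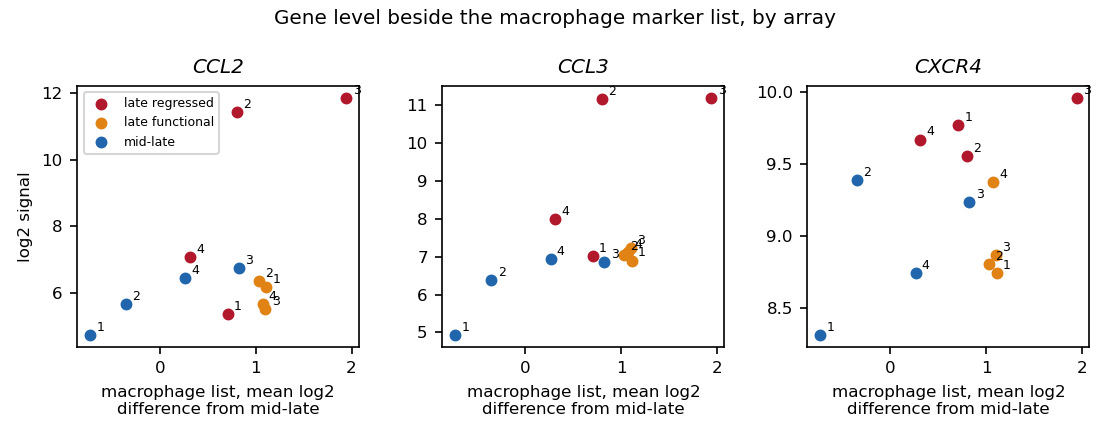
Log2 signal of CCL2, CCL3 and CXCR4 (vertical axes) against the mean log2 difference of 13 macrophage and monocyte markers from their mid-late mean (horizontal axes), 1 point per array, coloured by group and numbered by replicate. Late functional arrays, at 1.03 to 1.11 on the horizontal axis, have CCL2 values of 5.51 to 6.36. Late regressed array 3, at 1.95, has 11.86, and late regressed array 2, at 0.80, has 11.43.

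Late functional against mid-late glands compares days 14 to 16, in glands chosen for serum progesterone above 1.5 ng/ml, with days 10 to 12. The labels give no progesterone limit for mid-late glands, so day and this choice of glands cannot be told apart. By limma 0 of the 49 members were called, against 1.17% of all genes (0.580% higher and 0.594% lower), and at an unadjusted p below 0.05, 4 members lay higher and 5 lower, against 1362 and 1478 of all 14132 genes. In 3 members (6.12%) all late functional values lay above all mid-late ones, namely CXCL12, CXCL16 and CCRL2, against 10.4% of all genes. In 8 members (16.3%) they lay below, against 8.50% of all genes, and 5 of these 8 were near background (ACKR4, CCL20, CCL27, CCR3 and CCR8). The mean of the NC probe sets was lower in late functional glands too. The other three were CCL18, CCL21 and CXCL11. CCL21, which lymphatic vessels secrete to attract CCR7-bearing cells, had 8.64, 8.59, 8.75 and 8.03 on late functional arrays against 8.89, 9.38, 9.06 and 10.31 on mid-late arrays (difference -0.91, SE 0.30, adjusted p = 0.14), and 8.33, 9.08, 8.89 and 9.25 on late regressed arrays. The other CCR7 ligand gene, CCL19, was near background in all groups. CXCL16, a transmembrane ligand of CXCR6, had 5.24, 5.14, 5.16 and 5.31 on late functional arrays against 4.96, 4.96, 4.97 and 4.998 on mid-late arrays, a difference of 0.24 (SE 0.07, adjusted p = 0.11), and its receptor gene CXCR6 was near background.

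The interferon-induced ligands CXCL9, CXCL10 and CXCL11 attract T cells through CXCR3. Within late regressed glands CXCL9, CXCL10 and a dimmer CXCL11 probe set were highest on array 3, where the brighter CXCL11 probe set was lowest. CXCL10 had 5.52, 5.91, 5.47 and 5.44 on late functional arrays, above 3 of the 4 mid-late values of 4.26, 4.16, 5.79 and 4.44 (difference 0.92, SE 0.77, adjusted p = 0.551). On late regressed arrays it had 4.36, 3.96, 8.05 and 3.93, so that array 3 held the highest value and the other three lay below the background mark. CXCL11 ran the other way, with 7.62, 7.69, 7.74 and 8.14 on late functional arrays against 8.24, 8.40, 8.18 and 8.32 on mid-late arrays (difference -0.49, SE 0.14, adjusted p = 0.105), and 8.23, 7.71, 7.66 and 7.95 on late regressed arrays. Without late regressed array 1, CXCL11 was called lower in late regressed glands (-0.51, adjusted p = 0.0243). Its dimmer probe set differed by 0.13 in the other direction between late functional and mid-late glands, and had its highest value of the 12 arrays, 5.38, on late regressed array 3, against 3.78 to 4.20 on the other late regressed arrays. CXCL9 was near background by its group means, with 3.66, 3.68, 4.69 and 4.03 on late regressed arrays, 4.17, 4.39, 4.10 and 3.85 on late functional arrays and 3.94, 3.98, 4.69 and 4.17 on mid-late arrays. It passed the mark on late regressed array 3 and mid-late array 3, where CXCL10 was highest in its group too, and the dimmer CXCL11 probe set was highest within mid-late on array 3 as well (4.32). The brighter CXCL11 probe set was lowest on these 2 arrays within their groups. Beside them, of 11 interferon-gamma response genes IRF1, a transcription factor of that response, rose in late functional glands (1.35, adjusted p = 0.0358), where 0.580% of all genes did. The list averaged 0.41 to 1.04 on late functional arrays, against -0.51 to 0.38 on mid-late arrays. In late regressed glands IRF1 (0.98, adjusted p = 0.0247) and GBP2 (0.74, adjusted p = 0.00742) rose, where 7.60% of all genes did. The list averaged 0.16, -0.02, 0.98 and -0.28 on late regressed arrays 1 to 4. CCL17, a ligand of CCR4 made by dendritic cells and macrophages, had 5.88, 6.11, 6.71 and 4.56 on late functional arrays, where 3 of 4 lay above every mid-late value of 4.47, 4.46, 4.68 and 4.59 (difference 1.26, SE 0.57, adjusted p = 0.26). The mid-late mean was 4.55. With single mid-late values under the background mark raised to it, this uncalled difference of group means was 2.24-fold. On late regressed arrays CCL17 had 4.30, 7.02, 5.84 and 4.42. CCL11, or eotaxin, which attracts eosinophils, averaged 5.03 ± 0.96 in late regressed and 5.03 ± 0.49 in late functional glands, against 4.50 ± 0.43 in mid-late glands (adjusted p = 0.522 for late functional and 0.416 for late regressed). Its late regressed values ran from 4.37 to 6.42, with the highest on array 3.

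**Figure D5:**
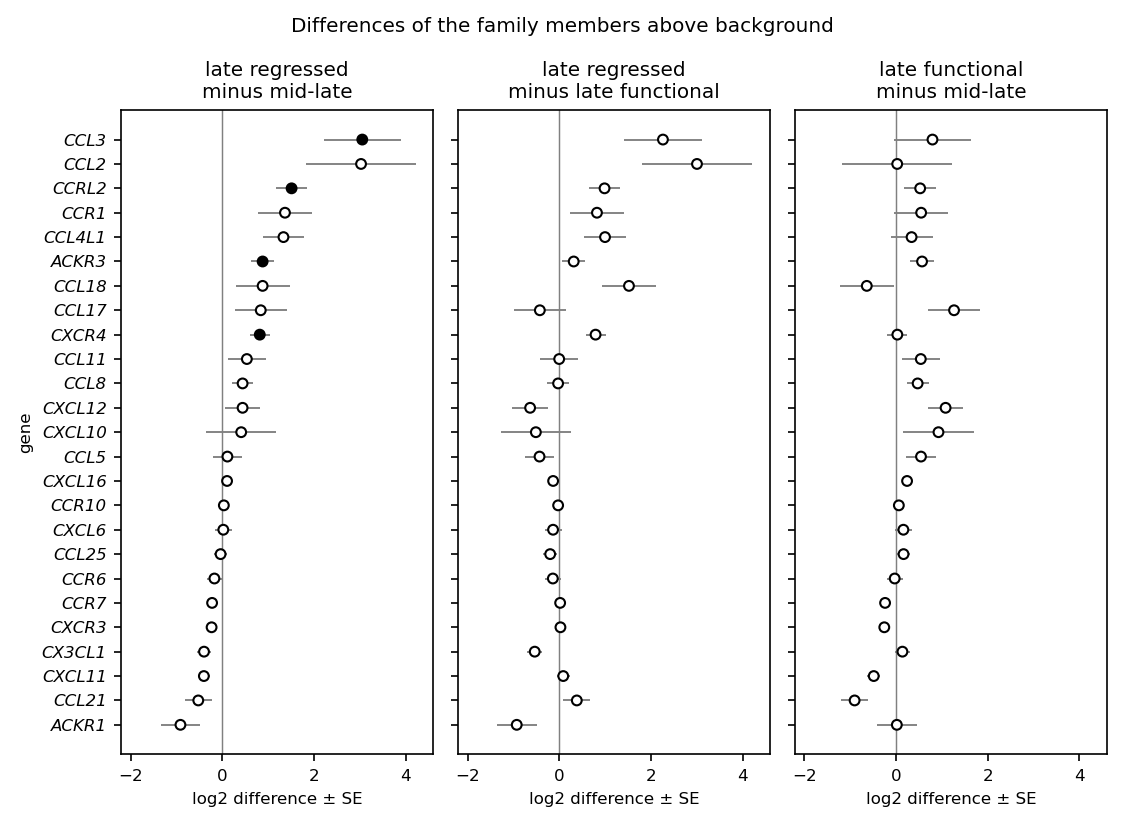
Log2 differences (horizontal axes, point ± SE of the limma fit) of the 25 members above background in the 3 comparisons, with filled points for genes called at an adjusted p below 0.05. The filled points are CCL3, CCRL2, ACKR3 and CXCR4, all in late regressed minus mid-late, and the other panels hold open points only.

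Late regressed against late functional glands compares low with maintained progesterone at the same days. By limma 0 members were called, and 1 gene of 14132 was (0.00708%). At an unadjusted p below 0.05, 6 members lay higher and 3 lower, against 1179 and 1099 of all genes. CCL2 had the largest difference, 3.01 (SE 1.20, adjusted p = 0.362), followed by CCL3 with 2.26 (SE 0.84, adjusted p = 0.33). All 4 late regressed values exceeded all late functional ones for CXCR4 alone (2.04% of members, 2.63% of all genes), and lay below them for CX3CL1 and the near-background CXCL17 (4.08% of members, 3.28% of all genes). CX3CL1, or fractalkine, a membrane-bound ligand of endothelium, had 6.20, 5.44, 5.87 and 6.21 on late regressed arrays, 6.56, 6.37, 6.53 and 6.40 on late functional arrays and 6.60, 6.33, 6.29 and 6.09 on mid-late arrays. Its difference from late functional was -0.53 (SE 0.16, adjusted p = 0.254). The fractalkine receptor gene CX3CR1 was near background. This comparison and that with mid-late share the late regressed arrays. The F test over the 3 groups called 0 members, against 6.65% of all genes. The dimmest CCL25 probe set, not used for this count, passed it (adjusted p = 0.0106).

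For several axes a ligand or a receptor gave no signal above background. CXCL8, the main neutrophil attractant, was near background by its group means, yet had 3.65, 4.68, 5.26 and 3.84 on late regressed arrays, against 3.50 to 3.92 on late functional and 3.67 to 3.95 on mid-late arrays. Its highest values were thus on the arrays where CCL2 and CCL3 were highest (difference from mid-late 0.55, SE 0.28, adjusted p = 0.222). CXCL6, which attracts neutrophils through the same receptors, averaged 7.17 ± 0.36 in late regressed, 7.30 ± 0.16 in late functional and 7.14 ± 0.31 in mid-late glands. CCR2, the CCL2 receptor gene, had its highest value of 4.12 on late regressed array 3, still under the background mark. CCL20, CXCL13, XCL1 and its receptor gene XCR1 stayed near background in all 3 groups, as did ACKR4, CCL24, CCL26, CCL27, CCL28, CCR4, CCR8 and CXCL17. Over the 24 near-background members, single values ran from 2.84 to 5.26, and CCL1, CCL13, CCL26, CXCL8 and CXCL9 passed the mark on at least 1 array. CCL25, a thymic and intestinal chemokine, had bright probe sets in all groups, at 10.43 ± 0.26 in late regressed, 10.62 ± 0.28 in late functional and 10.46 ± 0.09 in mid-late glands, without a called difference. Of its 4 probe sets the dimmest was called lower than in mid-late glands both in late regressed (-0.91, adjusted p = 0.00548) and in late functional glands (-0.62, adjusted p = 0.0355). The other three differed by -0.05 to -0.02 in late regressed and by 0.14 to 0.21 in late functional glands. CCL4, CXCL1, CXCL2, CXCL14, CXCR1, CXCR2 and CXCR5 have no probe set under a single symbol in the annotation used and are not analysed here.

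Most measured genes that process, present or transmit chemokine signals did not pass the test between late regressed and mid-late glands. Of 14 measured genes of chemokine processing and presentation 2 rose, 1 fell and 11 did not pass, where 7.60% of all genes were called higher and 5.51% lower. SDC1, a heparan sulphate proteoglycan that holds chemokines at the cell surface, had 9.48, 10.71, 10.58 and 11.02 on late regressed arrays, 8.82, 8.79, 9.30 and 10.25 on late functional arrays and 8.21, 8.06, 8.22 and 8.10 on mid-late arrays. Late regressed and late functional arrays all lay above mid-late arrays, and the late regressed difference was 2.30 (SE 0.35, adjusted p = 0.00742). TPST1, which sulphates tyrosines of chemokine receptors among other proteins, rose by 0.92 (adjusted p = 0.0233). DPP4, the surface peptidase that trims CXCL12 and other ligands, had 6.25, 5.32, 5.29 and 5.48 on late regressed arrays, 6.21, 6.13, 6.17 and 5.63 on late functional arrays and 5.88, 7.76, 6.91 and 7.03 on mid-late arrays. It fell in late regressed glands (-1.31, SE 0.34, adjusted p = 0.0354), although array 1 overlapped the mid-late range.

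Of 29 measured signalling genes downstream of the receptors 4 rose, 3 fell and 22 did not pass, against the same 7.60% and 5.51% of all genes, with a median of 0.19 against -0.02 over all genes. LYN, a Src-family kinase of myeloid cells (1.05, adjusted p = 0.0464), and ARRB2, a beta-arrestin that stops and internalises receptors (0.87, adjusted p = 0.0449), rose. RGS2, which shortens G protein signals (-1.32, adjusted p = 0.0437), and ELMO1, a partner of the migration factor DOCK2 (-0.86, adjusted p = 0.0195), fell. The other three were GNB1, a G protein beta subunit (0.66, adjusted p = 0.0277), and PXN, or paxillin, of cell adhesions (0.31, adjusted p = 0.0452), which rose, and PIK3R5, a regulatory subunit of phosphoinositide 3-kinase gamma (-0.49, adjusted p = 0.00966), which fell. PIK3R5 also fell in late functional against mid-late glands (-0.40, adjusted p = 0.0495). LYN and ARRB2 were highest on late regressed arrays 2 and 3, with 8.30 and 8.82 for LYN and 8.91 and 8.77 for ARRB2. RGS2 ran from 8.69 to 9.05 on late regressed arrays, below the 9.33 to 10.74 of late functional and the 9.14 to 11.04 of mid-late arrays. Of 23 NF-kappaB response genes, a group that includes inducers and companions of chemokine induction, 2 rose, 1 fell and 20 did not pass, beside the same 7.60% and 5.51% of all genes. NFKBIZ, a nuclear co-regulator of NF-kappaB, had 8.52, 8.46, 8.47 and 6.70 on late regressed arrays, 7.01, 7.06, 6.64 and 7.09 on late functional arrays and 6.78, 6.25, 6.51 and 6.79 on mid-late arrays (difference 1.46, SE 0.34, adjusted p = 0.0263). SOD2 also rose (1.97, adjusted p = 0.0293), and IL6 was called lower within the background range. TNF was near background in all groups. Of 7 family relatives outside the symbol rule 0 were called by limma. RARRES2, which encodes chemerin, the ligand that CCRL2 binds, had 8.61, 9.06, 8.96 and 7.88 on late regressed arrays, 7.72, 7.86, 8.08 and 7.53 on late functional arrays and 7.90, 7.88, 7.57 and 8.12 on mid-late arrays, with 3 of 4 late regressed values above all mid-late ones (difference 0.76, SE 0.23, adjusted p = 0.0568). PPBP, a platelet chemokine gene, had 7.15 on late regressed array 2 and 3.21 to 3.89 on the other three late regressed arrays.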

How the data were processed

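The authors deposited log2 signals made with RMA, per the submitters' processing notes. Neither its settings nor scan dates are stated in the labels. Of 52865 probe sets, 99 with the prefix AFFX and 59 with RPTR are controls and were dropped, which left 52707 to test. The platform annotation gave 1 symbol for 24956 probe sets, and 4 probe sets whose several symbols include one of the family were left out. All 49 members matched the RefSeq gene table of assembly T2T-MMU8v2.0 by Entrez ID with the same symbol. The table served for names and gene order (neighbours have at most 10 protein-coding genes between them).

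Group means of all 12 arrays were fitted with limma 3.58.1 in R 4.3.3, and p-values were Benjamini-Hochberg adjusted over all probe sets. Members were named by a rule, 33 in all: called members, the 10 brightest, and fixed ligand and receptor axes. Added to these were the 10 largest late regressed minus mid-late and 5 largest late regressed minus late functional differences above background. Only part of the 33 are given with every array's value, and the others by mean, range or as near background. Members outside the rule appear by mean or range, or where a count or a run of neighbours names them. Members and lists were chosen with earlier results of these data known. The scripts were tested on simulated data. Alternatives are given below. The number of arrays limits the precision, and no sequence is shown. The labels call the arrays biological replicates.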

Additional observations from a re-analysis of the deposited data

Results flagged for a closer look

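In 99 groups of 4 arrays (33 genes, 3 groups), 5 held a highest or lowest value set off from the others by Dixon's 95% criterion, which about 1 group in 20 meets by chance. CXCL10 on late regressed array 3 was 8.05, with the next value at 4.36. CXCL12 on late regressed array 2, the array with the largest 3′ to 5′ difference, was 5.36, with the next at 7.04. In late functional glands CXCL10 was 5.91 on array 2 with the next at 5.52, CCL18 was 6.86 on array 2 with the next at 7.38, and CCL25 was 10.2 on array 4 with the next at 10.7.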

How the results depend on the processing

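Of 23 other settings, 12 of which each left out 1 array, CCRL2 was called higher in late regressed than in mid-late glands in 16, CXCR4 in 10, ACKR3 in 7 and CCL3 in 5, and the sign of these 4 differences was positive in all 23. With 4 members called higher as reported, the count was 1 after renewed quantile normalization and with array weights, 2 with the 3′ to 5′ covariate, and 0 with only the groups compared, with the NC mean as a covariate, which left 0 of all genes called, and without late regressed arrays 2 and 3 together. Members called lower numbered 1 after renewed quantile normalization (CXCR3) and 1 when all probe sets of a gene were averaged (CXCL17). For late functional against mid-late, with 0 called as reported, only the groups compared gave 1 higher and 2 lower, array weights gave 2 higher and 1 lower, and leaving out late regressed arrays 2 and 3 gave 1 higher and 1 lower, with CXCL12 the member called higher in each and CXCL11 called lower in each. The F test called 1 member in place of 0 with the filter on dim probe sets, array weights, the 3′ to 5′ covariate, the mean over probe sets, and without late regressed arrays 2 and 3. Leaving out 1 array at a time gave 0 to 6 members higher and 0 to 1 lower in late regressed against mid-late, 0 to 1 higher in late functional against mid-late, and 0 to 5 by the F test, the 5 without late regressed array 1. The count of 4 became 0 without mid-late array 1 or late regressed array 3. CCL2 was called without late regressed array 1 (4.22, adjusted p = 0.0169). The cause of these changes was not tested; array weights were 0.354 and 0.571 for late regressed arrays 2 and 3. With the replicate number as a block the count was 3, since CXCR4 missed the threshold (0.82, adjusted p = 0.0527). Same-numbered arrays were not treated as pairs: their correlations ran from -0.122 to 0.296, and 8 of 24 array comparisons were best with their own number. These were 5 of 8 in late regressed against late functional (correlations 0.0243 to 0.296), 2 of 8 in late regressed against mid-late and 1 of 8 in late functional against mid-late. Of 95 differences not called as reported, 47 changed sign under at least 1 setting. Signal near background limits 24 of 49 members.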
